A study of Mus musculus with 6 samples.

Results

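Transforming growth factor beta (TGF-beta) signalling was described here through 10 genes, namely 3 ligands (Tgfb1, Tgfb2 and Tgfb3), the latent binding protein Ltbp1, 3 receptors (Tgfbr1, Tgfbr2 and Tgfbr3) and 3 SMADs (Smad2, Smad3 and Smad7). They were chosen by name as genes of the pathway, with earlier results of these data known, and all 10 were among the 14298 genes listed. The material was polyA RNA of whole aortic arches from adult C57/BL6 mice, read by RNA sequencing. The 3 knockout libraries came from ApoE-/- mice with floxed Rbpj alleles (RBPJflox/flox) and Cdh5-CreERT, a tamoxifen-activated recombinase driven by the promoter of the endothelial cadherin gene. The 3 control libraries came from ApoE-/- RBPJflox/flox mice without the recombinase, and the design text gives 3 mice per group. Both groups lacked apolipoprotein E, received tamoxifen for 1 week from 8 weeks of age and then ate a high-fat diet for 6 weeks. The groups therefore differ in the presence of the recombinase as well as in the deletion, which removes in endothelium the DNA-binding partner of Notch receptors, while the RNA came from every cell of the arch.

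TGF-beta ligands are secreted in a latent complex that is tethered to the matrix by latent TGF-beta binding proteins and is opened by integrins and proteases. The active ligand brings the type II receptor TGFBR2 together with the type I receptor TGFBR1, which phosphorylates SMAD2 and SMAD3, and these enter the nucleus with SMAD4. SMAD7 is an inhibitory SMAD that is itself induced by the pathway. In the arterial wall TGF-beta is known for maintaining smooth muscle contractile genes and matrix, and for restraining inflammation.

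Over the listed genes, libraries held 5904504 to 10072495 reads, and 133 to 9285 reads lay behind each value of a member. Levels are normalised CPM, that is reads scaled by library size and edgeR's TMM factors, and ± gives the SD of 3 libraries. Each log2 fold change is the knockout mean of log2(value + 1) less the control mean, with limma's 95% interval and Benjamini-Hochberg adjusted p over all listed genes. In bulk tissue, fewer cells of a type and less RNA per cell cannot be told apart. The targeted gene Rbpj stood at 169, 197 and 212 CPM in knockout libraries S595, S598 and S599, against 174, 191 and 200.4 CPM in control libraries S591, S592 and S594. Its log2 fold change was 0.03 (95% interval −0.24 to 0.30, limma adjusted p = 0.923), and this whole-gene value from whole arch does not check a deletion in endothelium. Summed T cell and thymocyte markers reached 154 CPM in knockout S598 and 43.1 CPM in knockout S599, against 9.59 CPM in knockout S595 and 12.5 to 16.5 CPM in the controls. Airway and epithelial markers summed to 61.2 to 85.0 CPM in knockout and 2.49 to 10.2 CPM in control arches. Scgb1a1 and Bpifa1 made up most of the knockout sums, with knockout means of 29.03 and 39.48 CPM. Cdh1 of the same list overlapped between groups, with a log2 fold change of 0.27 (limma adjusted p = 0.777). The sums therefore do not show a difference in epithelium in general. For the genes named from the pathway and its members, values without S598 and S599, that is against knockout S595 alone, are given where they differ by over 1.5 times.

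None of the 10 members passed limma's test at an adjusted p of 0.05, where 0.021% of the listed genes passed. Those were 3 genes, 2 of them from the airway and epithelial markers, Scgb1a1 and Bpifa1 (limma adjusted p = 0.0317 for both). The edgeR quasi-likelihood test and limma-voom on recovered reads also called 0 members, and DESeq2 called Tgfb3. At an unadjusted p of 0.05, 3 members (30.0%) passed, Tgfb3 and Tgfbr3 with the knockout higher and Tgfb1 with the knockout lower, against 20.0% of the listed genes. Without control S594 that count was 0. The groups were apart, with no overlap of values, for 3 members, against 25.5% of the listed genes: Tgfbr3 was the 1 member with the knockout higher, where 11.3% of genes were, and Tgfb1 and Smad2 had the knockout lower, as did 14.2% of genes. These shares are close to the background and are not a result about the members as a group. The median log2 fold change of the 10 members was 0.18, beside −0.02 over the listed genes.

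**Figure D1:**
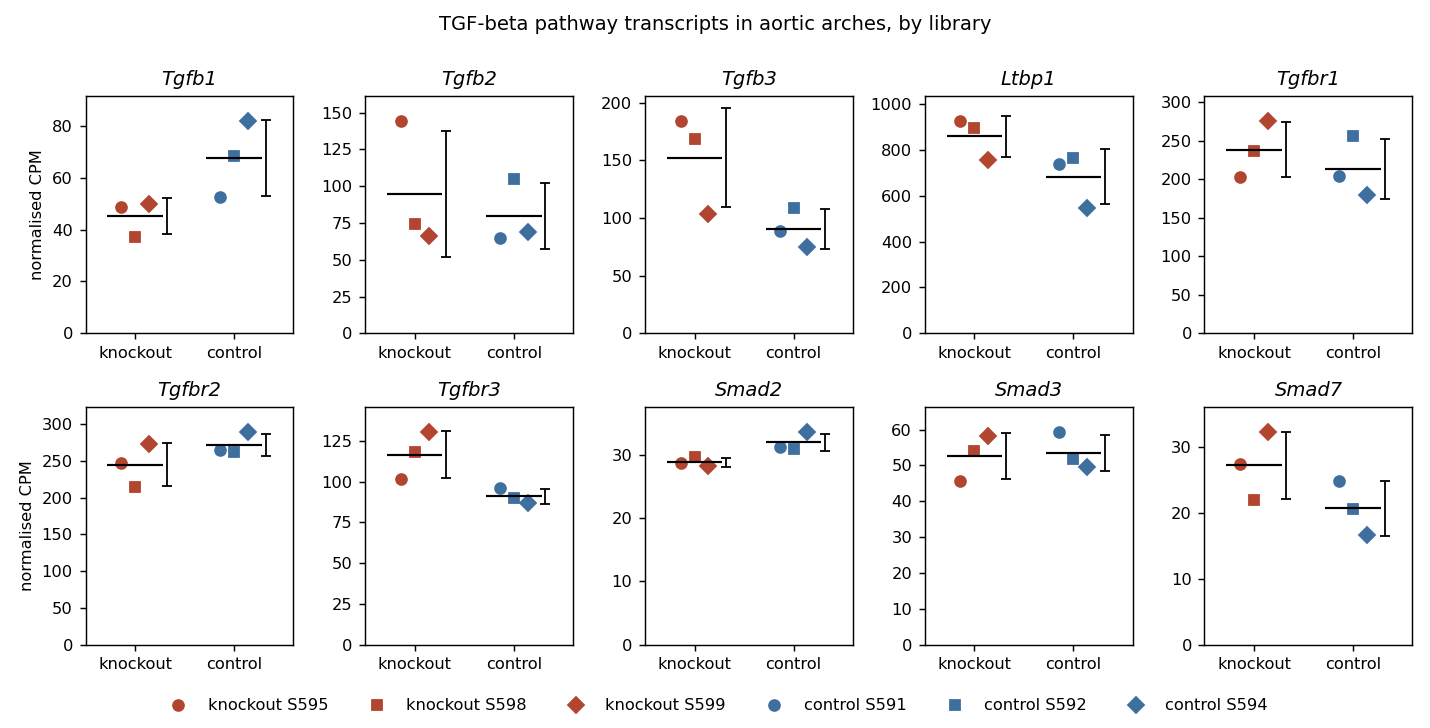
Normalised CPM of the 10 members (vertical axes, each from 0) in 3 knockout libraries and 3 control libraries, with 1 symbol per library. Horizontal lines are group means and bars are ± 1 SD (n = 3). The groups are apart for Tgfb1, Smad2 and Tgfbr3 and overlap for the other members.

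Promoters from RefSeq (build GRCm38.p6, 250 bases before to 50 after the start) were matched for 6 members (Tgfb1, Tgfb2, Ltbp1, Tgfbr1, Tgfbr2 and Smad3), in 8 entries because Ltbp1 and Tgfbr1 have alternative starts. Those of Tgfb3, Tgfbr3, Smad2 and Smad7 were not used here. The 8 entries were searched on both strands for TGGGAA, the core letters that RBPJ recognises, and CAGAC, a SMAD box, which do not overlap each other in these entries. TGGGAA was found in 1 member, Smad3, and stands in 25.6% of the 32817 RefSeq promoters of this length. CAGAC was found in 4 members (Tgfb2, Tgfbr2, both entries of Ltbp1 and 1 entry of Tgfbr1) and stands in 49.6% of those promoters. Members are counted over all their entries and the shares are per promoter, so they are not on the same scale. A match is a description and shows no binding, and no match says only that the letters are not in this window. The 3 promoters below are shown because Tgfb1 is the ligand whose groups did not overlap, Tgfb2 holds 2 SMAD boxes, and Smad3 holds the RBPJ letters. An entry of Ltbp1, not shown, also holds 2 SMAD boxes. Capitals mark the matches, and each sequence reads 5′ to 3′ on the gene's strand. Tgfb1 lies at chr7:25686752-25687051 on the plus strand, Tgfb2 at chr1:186705940-186706239 on the minus strand and Smad3 at chr9:63757945-63758244 on the minus strand.
Tgfb1: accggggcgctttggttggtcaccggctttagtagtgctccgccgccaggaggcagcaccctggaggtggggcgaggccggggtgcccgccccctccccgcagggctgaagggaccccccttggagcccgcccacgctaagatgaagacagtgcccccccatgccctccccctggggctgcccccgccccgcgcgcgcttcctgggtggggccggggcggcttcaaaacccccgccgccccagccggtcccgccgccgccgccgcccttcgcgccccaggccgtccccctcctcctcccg
Tgfb2: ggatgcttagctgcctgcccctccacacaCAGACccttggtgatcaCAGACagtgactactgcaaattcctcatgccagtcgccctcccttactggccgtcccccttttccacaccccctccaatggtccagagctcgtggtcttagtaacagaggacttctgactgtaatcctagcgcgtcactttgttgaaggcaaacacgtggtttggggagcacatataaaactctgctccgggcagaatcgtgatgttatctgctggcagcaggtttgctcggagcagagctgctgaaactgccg
Smad3: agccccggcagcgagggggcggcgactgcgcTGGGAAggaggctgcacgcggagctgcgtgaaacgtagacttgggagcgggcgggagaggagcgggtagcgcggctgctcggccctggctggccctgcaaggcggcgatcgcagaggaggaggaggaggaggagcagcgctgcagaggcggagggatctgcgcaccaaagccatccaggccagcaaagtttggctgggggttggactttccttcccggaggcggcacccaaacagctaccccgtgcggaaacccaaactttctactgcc
The Tgfb1 window has no capital and a G and C content of 77.0%, against 54.3% for Tgfb2 and 67.7% for Smad3. The SMAD boxes of Tgfb2 begin 221 and 204 bases before the start, and the TGGGAA of Smad3 begins 219 bases before it.

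The 3 ligands had log2 fold changes of different sign. Tgfb1 (ENSMUSG00000002603, chromosome 7), the isoform made abundantly by leukocytes and platelets, stood at 48.9, 37.3 and 49.9 CPM in knockout libraries S595, S598 and S599, against 52.7, 68.5 and 81.9 CPM in control libraries S591, S592 and S594. Every knockout value lay below every control value, with a narrow gap between knockout S599 and control S591. The means were 45.4 ± 7.04 CPM in knockout and 67.7 ± 14.6 CPM in control arches, a log2 fold change of −0.56 (standard error 0.18, 95% interval −0.99 to −0.13, limma adjusted p = 0.164). It was negative with any 1 library left out, from −0.72 (without control S591) to −0.41 (without control S594). Macrophage markers were lower in knockout arches for 10 of 10 genes by sign and apart for 8 of them, as were 14.2% of the listed genes. Their sums were 2306 to 5451 CPM in knockout and 5379 to 9043 CPM in control libraries. The part of macrophage markers in the Tgfb1 value was not tested.

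Tgfb3 (ENSMUSG00000021253, chromosome 12), an isoform prominent in mesenchymal tissues, was on the opposite side. It stood at 184, 169 and 103 CPM in knockout libraries S595, S598 and S599, against 88.6, 109 and 74.6 CPM in control libraries S591, S592 and S594. Knockout S595 and S598 were well above the controls, while knockout S599 lay just under control S592, so the groups overlapped. The means were 152 ± 42.9 CPM in knockout and 90.6 ± 17.1 CPM in control arches, a 1.68-fold difference. The log2 fold change was 0.72 (standard error 0.23, 95% interval 0.18 to 1.26, limma adjusted p = 0.159), from 0.56 (without knockout S595) to 0.97 (without knockout S599). DESeq2 on the recovered reads called it (log2 fold change 0.76, adjusted p = 0.0408), among 6.69% of the genes that tool tested, whereas edgeR's quasi-likelihood test gave an adjusted p of 0.152, and over 17 alternatives it ran from 0.0408 to 0.475. Smooth muscle markers were higher in knockout arches for 8 of 8 genes by sign, with sums of 22417 to 30826 CPM in knockout and 12765 to 22184 CPM in control libraries, and their part in the Tgfb3 value was not tested.

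Tgfb2 (ENSMUSG00000039239, chromosome 1), the isoform required for outflow tract and arch development in mouse, showed no group difference beyond its spread. It stood at 144, 74.1 and 66.0 CPM in knockout libraries S595, S598 and S599, against 65.1, 105 and 68.8 CPM in control libraries S591, S592 and S594. Knockout S595 and control S592 were high within their own groups. The log2 fold change was 0.19 (95% interval −0.52 to 0.91, limma adjusted p = 0.770). It was −0.15 without knockout S595 and 0.88 against knockout S595 alone. Its coefficient of variation was 45.5% in knockout and 27.8% in control arches, the highest of the 10 members in both groups. Antisense or opposite-strand transcripts of the GENCODE M21 annotation overlap 2.38% of the exonic bases of Tgfb2 and at most 7.60% of those of Tgfb3 for a single such transcript, and a same-strand transcript overlaps 4.88% of those of Tgfbr3. The library kit does not mark strand, and reads there cannot be told apart.

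Levels were also taken per kilobase of exon to compare the ligands with each other. With exon lengths of GENCODE M21 (2.175, 5.2 and 3.383 kb), Tgfb1 stood at 20.9 ± 3.24, Tgfb2 at 18.2 ± 8.29 and Tgfb3 at 45.0 ± 12.7 CPM per kb in knockout arches. In control arches Tgfb1 stood at 31.1 ± 6.73, Tgfb2 at 15.3 ± 4.26 and Tgfb3 at 26.8 ± 5.04 CPM per kb. Tgfb3 was thus the most abundant ligand transcript in every knockout library (30.6 to 54.4 CPM per kb), while Tgfb1 and Tgfb3 differed by less than their spread in control arches. Annotated exon length may exceed the length of the transcripts in this tissue, so these are levels per annotated kilobase.

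Ltbp1 (ENSMUSG00000001870, chromosome 17), which anchors latent TGF-beta to the matrix, stood at 926, 895 and 758 CPM in knockout libraries S595, S598 and S599, against 738, 764 and 544 CPM in control libraries S591, S592 and S594. The groups overlapped, since knockout S599 lay just below control S592. The log2 fold change was 0.34 (95% interval −0.06 to 0.75, limma adjusted p = 0.315), or 0.19 without control S594. Per kilobase of exon it was the most abundant of the 10 members, at 125 ± 13.0 CPM per kb in knockout and 98.9 ± 17.4 CPM per kb in control arches. The part of the smooth muscle sums given above in the Ltbp1 value was not tested.

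Among receptors, the co-receptor showed the clearest separation. Tgfbr3 (ENSMUSG00000029287, chromosome 5), also called betaglycan, which presents ligand, TGF-beta2 above all, to the signalling receptors, stood at 101, 118 and 130 CPM in knockout libraries S595, S598 and S599, against 95.9, 89.8 and 86.9 CPM in control libraries S591, S592 and S594. Every knockout value was above every control value. The means were 117 ± 14.4 CPM in knockout and 90.9 ± 4.57 CPM in control arches, a 1.28-fold difference. The log2 fold change was 0.35 (standard error 0.11, 95% interval 0.08 to 0.61, limma adjusted p = 0.160), and 0.27 to 0.44 with 1 library left out. Against knockout S595 alone, without S598 and S599, it was 0.16.

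The signalling receptors were within their spread. Tgfbr1 (ENSMUSG00000007613, chromosome 4), the type I kinase, stood at 203, 237 and 275 CPM in knockout libraries S595, S598 and S599, against 204, 256 and 179 CPM in control libraries S591, S592 and S594. The log2 fold change was 0.17 (95% interval −0.22 to 0.55, limma adjusted p = 0.618). It ran from 0.05 (without control S594) to 0.31 (without control S592) with 1 library left out, and was −0.05 without S598 and S599. Tgfbr2 (ENSMUSG00000032440, chromosome 9), the type II kinase that binds ligand, stood at 248, 214 and 273 CPM in knockout libraries S595, S598 and S599, against 265, 262 and 289 CPM in control libraries S591, S592 and S594. The groups overlapped through knockout S599, and the log2 fold change was −0.16 (95% interval −0.43 to 0.12, limma adjusted p = 0.504), from −0.24 without knockout S599 to −0.06 without knockout S598. The interval of Tgfbr1 includes the 0.35 measured for Tgfbr3 and that of Tgfbr2 reaches −0.43, so neither shows equal levels in the groups. Per kilobase of exon, Tgfbr1 stood at 37.2 ± 5.65 CPM in knockout and 33.2 ± 6.07 CPM in control arches. On the same scale Tgfbr2 stood at 29.9 ± 3.59 CPM in knockout and 33.2 ± 1.81 CPM in control arches. They were within each other's spread in control arches only. In knockout libraries S595, S598 and S599 Tgfbr1 was the higher, at 31.7, 36.9 and 42.95 CPM per kb. Tgfbr2 stood there at 30.25, 26.2 and 33.3 CPM per kb. Tgfbr3 was the lowest of the receptors on that scale, at 19.1 ± 2.37 CPM in knockout and 14.9 ± 0.751 CPM in control arches.

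None of the 3 SMADs had an interval that excluded 0. Smad2 (ENSMUSG00000024563, chromosome 18), a receptor-activated SMAD, stood at 28.8, 29.6 and 28.2 CPM in knockout libraries S595, S598 and S599, against 31.4, 31.0 and 33.6 CPM in control libraries S591, S592 and S594. The groups did not overlap although the means, 28.9 ± 0.71 CPM in knockout and 32.01 ± 1.41 CPM in control arches, were close. The log2 fold change was −0.14 (95% interval −0.38 to 0.09, limma adjusted p = 0.480). Smad2 had the lowest coefficients of variation of the members, 2.46% in knockout and 4.40% in control arches.

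Smad3 (ENSMUSG00000032402, chromosome 9), the partner that binds DNA directly, stood at 45.7, 53.9 and 58.3 CPM in knockout libraries S595, S598 and S599, against 59.3, 51.7 and 49.5 CPM in control libraries S591, S592 and S594. The groups covered the same range, with a log2 fold change of −0.03 (95% interval −0.32 to 0.27, limma adjusted p = 0.931) that took either sign with other scalings and with single libraries left out. It was −0.22 without S598 and S599. Smad7 (ENSMUSG00000025880, chromosome 18), the inhibitory SMAD, stood at 27.3, 21.9 and 32.2 CPM in knockout libraries S595, S598 and S599, against 24.8, 20.6 and 16.5 CPM in control libraries S591, S592 and S594. Knockout S598 lay below control S591, and the log2 fold change was 0.38 (95% interval −0.07 to 0.83, limma adjusted p = 0.317), or 0.24 without control S594. Per kilobase of exon the SMADs were the lowest of the 10 members. Smad3 stood at 10.3 ± 1.25 CPM in knockout and 10.5 ± 1.01 CPM in control arches, Smad7 at 6.20 ± 1.17 CPM in knockout and 4.71 ± 0.942 CPM in control arches, and Smad2 at 3.36 ± 0.0827 CPM in knockout and 3.73 ± 0.164 CPM in control arches, an order of means shared by both groups.

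**Figure D2:**
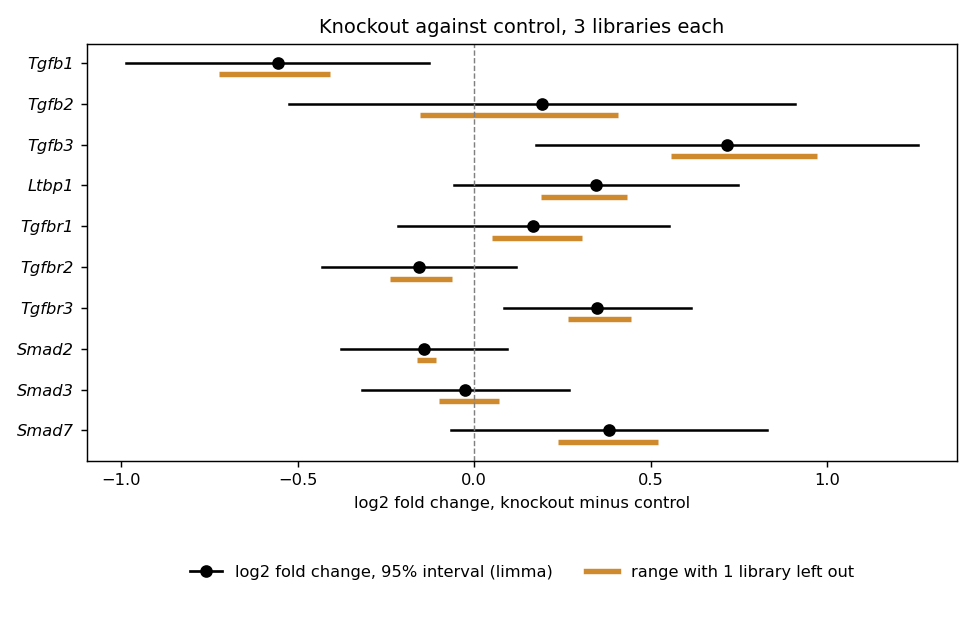
Log2 fold change of each member (horizontal axis, knockout minus control) with limma's 95% interval in black and, in orange, the range when 1 of the 6 libraries was left out. The intervals of Tgfb1, Tgfb3 and Tgfbr3 do not reach 0, while Tgfb2 and Smad3 cross 0 with single libraries left out.

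Differences between members of one role were then taken within each library, where the library's scaling has almost no part. Tgfb3 minus Tgfb1 on the log2(value + 1) scale was 1.89, 2.15 and 1.04 in knockout libraries S595, S598 and S599, against 0.74, 0.66 and −0.13 in control libraries S591, S592 and S594. The groups were apart, and the difference of 1.27 corresponds to a Tgfb3 to Tgfb1 ratio 2.41-fold higher in knockout arches. Its exact two-sided permutation p was 0.1, the smallest that 3 against 3 libraries allow, and 0.24 when adjusted over the 6 ratios compared.

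Tgfbr3 minus Tgfbr2 was −1.28, −0.86 and −1.06 in knockout libraries S595, S598 and S599, against −1.46, −1.54 and −1.72 in control libraries S591, S592 and S594. These groups were also apart, by 0.51 (exact permutation p = 0.1, adjusted 0.24), so the co-receptor stood higher relative to the type II receptor. Of the knockout libraries, S595 was nearest to the controls, at −1.28 beside a control mean of −1.57. The ratios were not taken without both S598 and S599. The other 4 ratios overlapped: the difference was 0.75 for Tgfb2 minus Tgfb1, 0.32 for Tgfbr1 minus Tgfbr2, 0.41 for Smad7 minus Smad3 and −0.12 for Smad2 minus Smad3. Their exact permutation p was 0.2 for the first 3 and 0.5 for the last.

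**Figure D3:**
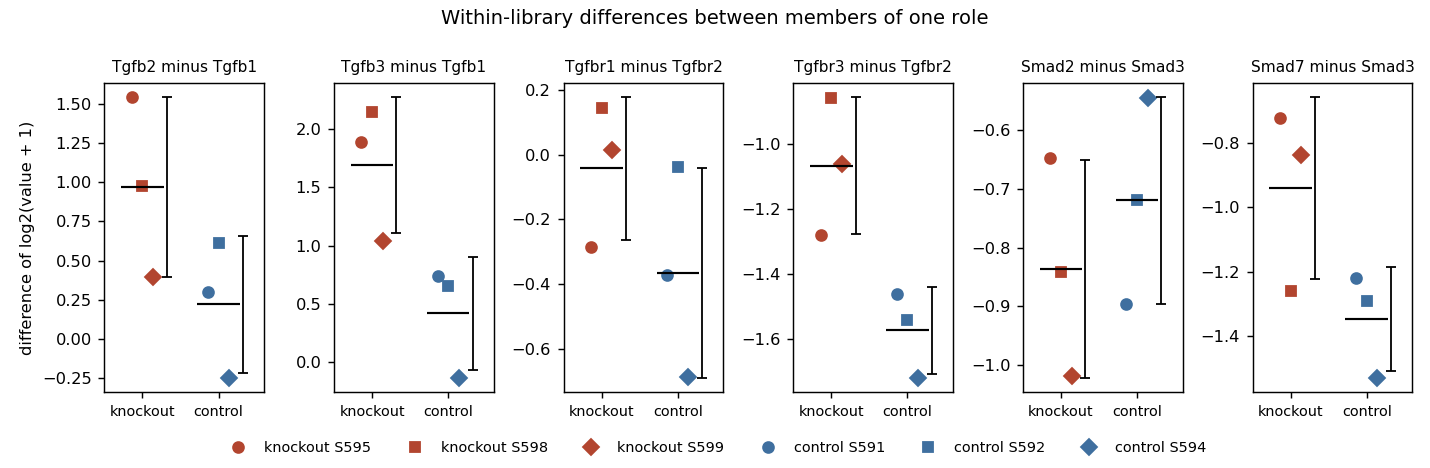
Differences of log2(value + 1) between 2 members in each library (vertical axes differ between panels), with knockout left of control, lines at group means and bars of ± 1 SD (n = 3). Tgfb3 minus Tgfb1 and Tgfbr3 minus Tgfbr2 separate the groups and the other 4 overlap.

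The rest of the pathway was described through 5 lists of 93 genes, of which 91 were listed (Fbn2 and Itgb6 were not). None passed limma's test at an adjusted p of 0.05, while at an unadjusted p of 0.05 there were 7 with the knockout higher and 24 lower, 34.1% against 20.0% of the listed genes. The groups did not overlap for 10 higher and 22 lower genes (35.2%, against 25.5% of the listed genes). The lists were chosen with earlier results of these data known, so these shares describe the lists and do not test the pathway. Macrophage markers were lower and smooth muscle markers higher by sign in the same libraries, and their part in these counts was not tested. The edgeR quasi-likelihood test and limma-voom called 0 as well, and DESeq2 called 21 (17 of them lower in knockout arches), where it called 6.69% of the genes it tested. Without control S591 limma called 18 of the 91 (15 lower), where it called 4.69% of the listed genes, and 0 of the 10 members. S591 also had the highest fat cell marker sum, 2606 CPM against 865 to 1292 CPM in knockout and 628 to 1298 CPM in the other control libraries, and the part of this in the count was not tested. Over the listed genes the unadjusted calls were 1150 higher and 1710 lower (40.2% higher), a share that became 51.9% after quantile normalisation and 56.2% after median scaling. In the 91 pathway genes these scalings gave 10 higher with 23 lower, and 10 higher with 22 lower. The median log2 fold change of the 91 was −0.0428 with all libraries and −0.0403 against knockout S595 alone. Positive log2 fold changes made up 45.1% of the 91, against 47.8% of the listed genes, beside which the sign counts of the lists below stand.

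In the latent complex and its activation, 11 of 15 genes had negative log2 fold changes, with a median of −0.38. Nrros, which holds latent TGF-beta1 on macrophages and microglia, stood at 37.1, 27.4 and 42.9 CPM in knockout and 58.7, 73.0 and 83.3 CPM in control libraries. Furin, the convertase that cleaves the ligand precursors, stood at 94.1, 86.0 and 82.7 CPM in knockout and 118, 125 and 166 CPM in control libraries. Both were apart, with log2 fold changes of −0.99 and −0.62 (limma adjusted p = 0.107 and 0.112). The membrane protease gene Mmp14, whose product takes part in freeing latent TGF-beta, averaged 116 ± 25.7 CPM in knockout and 247 ± 77.8 CPM in control arches. Ltbp2, a relative of Ltbp1 that does not bind latent TGF-beta, averaged 234 ± 55.0 CPM in knockout and 509 ± 194 CPM in control arches, and the sign was thus opposite to that of Ltbp1 in the same arches. Their log2 fold changes were −1.06 and −1.07 (limma adjusted p = 0.121 and 0.127), and that of Ltbp2 was −0.71 without S598 and S599.

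Among accessory receptors and ligand binders, 9 of 12 had negative log2 fold changes, with a median of −0.24. Nrp2, a neuropilin co-receptor, stood at 50.1, 40.7 and 63.5 CPM in knockout and 96.0, 98.9 and 129 CPM in control libraries, a log2 fold change of −1.06 (limma adjusted p = 0.107). Acvrl1, the endothelial type I receptor ALK1, had a log2 fold change of −0.35 (adjusted p = 0.221), which was −0.08 against knockout S595 alone. Bambi, a decoy receptor, was on the higher side at 0.69 (adjusted p = 0.239), and Lrg1, a modulator of endothelial TGF-beta signalling, on the lower side at −1.10 (adjusted p = 0.203). The groups overlapped for Bambi and Lrg1, and against knockout S595 alone their log2 fold changes were 1.24 and −0.42. Bambi was 0.42 without knockout S595, and Lrg1 was −0.68 without control S594.

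SMAD partners and regulators had a median log2 fold change of 0.11, with 13 of 20 positive. Smad9, a SMAD of the BMP branch, stood at 17.1, 24.0 and 22.9 CPM in knockout and 12.5, 7.71 and 7.37 CPM in control libraries. That separation gave a log2 fold change of 1.15 (limma adjusted p = 0.107), 1.03 to 1.37 with 1 library left out. Smad6, the inhibitory SMAD of the BMP branch, was also apart and higher in knockout arches at 0.46 (adjusted p = 0.280). That value rests in part on knockout S598, where Smad6 stood at 30.1 CPM, against 19.1 and 19.0 CPM in knockout S595 and S599 and 13.1 to 17.7 CPM in control libraries: it was 0.25 without S598 and also without S598 and S599. Smad1 at 0.22 and the corepressor gene Tgif1 at −0.61 overlapped between groups (adjusted p = 0.329 and 0.305), and Tgif1 ran from −0.97 (without control S591) to −0.37 (without control S594).

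Target genes of the pathway went both ways, with 15 of 24 negative and a median of −0.47. Junb, an AP-1 subunit induced early by TGF-beta and by many other stimuli, stood at 24.3, 21.7 and 23.0 CPM in knockout and 37.0, 51.2 and 49.98 CPM in control libraries (log2 fold change −0.96, limma adjusted p = 0.107). The repressor gene Bhlhe40 averaged 56.9 ± 18.3 CPM in knockout and 109 ± 14.9 CPM in control arches. The matrix protein gene Tgfbi, named for its induction by TGF-beta, averaged 166 ± 28.6 CPM in knockout and 339 ± 132 CPM in control arches. Pdgfb, a growth factor gene of endothelium, averaged 28.95 ± 1.603 CPM in knockout and 39.4 ± 4.27 CPM in control arches. These 3 had log2 fold changes of −0.97, −0.97 and −0.43 (limma adjusted p = 0.121, 0.134 and 0.129), and their groups were apart. Positive values in this list included the contractile genes Acta2, Tagln and Cnn1 (0.63, 0.63 and 0.66, or 0.41, 0.41 and 0.43 without control S594, named after their values were seen), which also stand in the smooth muscle list.

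The activin and BMP branch had a median of 0.05, with 12 of 20 positive. Inhbb, an activin subunit, stood at 6.32, 8.15 and 8.26 CPM in knockout and 15.4, 26.2 and 29.2 CPM in control libraries, a 3.12-fold difference of means in favour of control and a log2 fold change of −1.48 (limma adjusted p = 0.107). Bmpr1a, a BMP type I receptor, stood at 293, 360 and 334 CPM in knockout and 241, 247 and 203 CPM in control libraries, a log2 fold change of 0.51 (adjusted p = 0.121). The BMP antagonist gene Chrdl1 and the family ligand gene Gdf10 were likewise apart with the knockout higher, at 0.59 and 0.61 (adjusted p = 0.122 and 0.127).

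The libraries also differed in the cell types they represent, as far as the markers chosen show. Where 14.2% of the listed genes were apart with the knockout lower, 8 of the 10 macrophage markers were. Their sums, of which Lyz2 made up most, overlapped through knockout S599 (5451 CPM, Lyz2 4120 CPM) and control S591 (5379 CPM, Lyz2 3765 CPM), and smooth muscle sums were apart by a narrow margin between the same libraries (22417 and 22184 CPM). Endothelial markers summed to 916 to 1395 CPM in knockout and 1120 to 1186 CPM in control libraries, with the highest sum in knockout S599, and Cdh5 stood at 109, 111 and 198 CPM in knockout and 123, 126 and 146 CPM in control libraries. Haemoglobin and other red blood cell markers summed to 96.8 to 1496 CPM in knockout and 219.8 to 337 CPM in control libraries. Fibroblast markers summed to 5074 to 6286 CPM in knockout and 6593 to 7921 CPM in control libraries. Yet the groups were apart for only 2 of 7 genes, Lum and Dcn (28.6%, against 25.5% of the listed genes). Lum stood at 682, 427 and 694 CPM in knockout and 1021, 2305 and 1707 CPM in control libraries, while Gsn had a positive log2 fold change of 0.36. Striated muscle markers summed to 7.55 to 29.7 CPM in knockout and 5.10 to 45.8 CPM in control libraries, highest in S591. Sftpc and Epcam of the airway list and Rag2 and Ptcra of the thymocyte list were not listed. The part of cell composition in the values of the members was not tested.

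**Figure D4:**
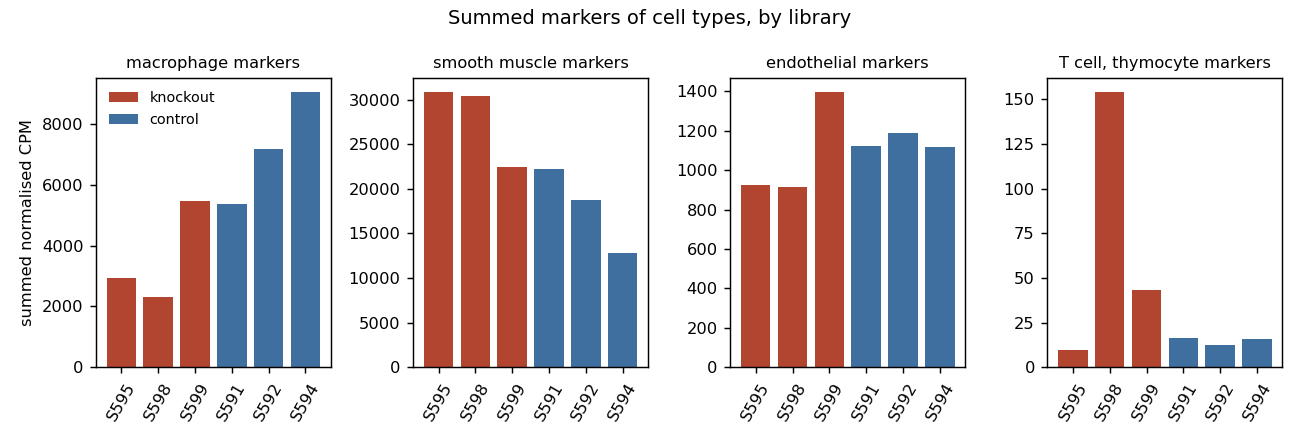
Summed normalised CPM of 4 marker lists (vertical axes, from 0) in the 3 knockout libraries, then the 3 control libraries. Macrophage sums are highest in control S594 and smooth muscle sums in knockout S595, and T cell and thymocyte sums stand out in knockout S598 and S599.

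Tgfb3 had the smallest p of the members, and the genes closest to it in pattern were sought among 11723 genes with a mean of at least 5 CPM. The measure was the root mean square difference of gene-centred log2(value + 1) over the 6 libraries. The 3 nearest were Bmp3 (0.068), Cdr2 (0.12) and Zfp568 (0.13), where the profile of Tgfb3 itself varied by 0.47 around its mean. Bmp3, a ligand gene of the same superfamily, stood at 31.1, 27.8 and 17.1 CPM in knockout libraries S595, S598 and S599, against 16.1, 19.4 and 13.3 CPM in control libraries S591, S592 and S594, with the same order of libraries as Tgfb3 and a limma adjusted p of 0.234. Since Bmp3 was chosen by its likeness to Tgfb3, the shared order is no separate result.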

How the data were processed

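Per the labels' protocols, RNA of integrity 7.9 or more went into TruSeq v2 libraries, a kit that does not mark strand. Per the submitters' processing notes, the tools were limma, edgeR, Bowtie 0.12.7, RSEM 1.16, cutadapt 1.6.1 and CASAVA 1.8, with build NCBIM37, and their roles are not stated. The gene annotation is not stated there either. The authors deposited a normalised signal, 1 value per gene and library. On checking, each value equals (reads + 0.5) in CPM of a TMM-scaled library size, and 100% of the values gave whole reads (tolerance 0.01). Column names give the group and a library number but no sample, so libraries are called by that number. Symbols came from GENCODE M21 and matched 13828 of 14298 identifiers. Its build (GRCm38) differs from that of the authors. Genes under about 1 CPM (lowest third-highest value 1.05) were not listed, so not analysed here.

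Groups were compared with R 4.3.3 and limma 3.58.1, fitting genotype alone to log2(value + 1) with trended variance, and two-sided p adjusted over all 14298 genes (threshold 0.05). The comparison was tested on simulated data that gave every gene the same dispersion, so that test does not cover the spread of these genes. Alternatives were other pseudocounts, a filter, scalings and variance models, limma-voom, edgeR 4.0.16 and DESeq2 1.42.0 on the recovered reads, each library left out, and S598 and S599 left out. Counting error aside, n = 3 limits the precision. Named genes were the members, Rbpj, Cdh5, the 4 genes with the smallest p in each pathway list and the 3 nearest to the member with the smallest p in pattern. Other genes are marker genes or were chosen after their values were seen. The members and lists were chosen with earlier results of these data known.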

Additional observations from a re-analysis of the deposited data

How the results depend on the processing

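The number of genes limma called across the table, 3, was 0 with a pseudocount of 0.5 or 0.1, with a mean of at least 5 CPM, with limma-voom, with edgeR's quasi-likelihood test and without S598 and S599, was 1 without the intensity trend, and was 900 with DESeq2. With 1 library left out it ran from 0 to 671. The count of members called, 0, was 1 with DESeq2 (Tgfb3) and 0 under the other 16 alternatives. The count of pathway genes called, 0, was 21 with DESeq2, which called 6.69% of the genes it tested, and ran from 0 to 18 with 1 library left out, the 18 being without S591, where 4.69% of the genes were called. Rbpj ran from −0.045 to 0.12 with 1 library left out and was −0.16 without S598 and S599. Of the members, Tgfb2 ran from −0.15 to 0.41 with 1 library left out, Tgfbr1 was −0.053 without S598 and S599, and Smad3 was 0.012 after quantile normalisation, 0.038 after median scaling and ran from −0.10 to 0.071 with 1 library left out. The other 7 members kept their sign under the 17 alternatives each. The 6 within-library ratios kept theirs under the 8 tried, which did not include leaving out both S598 and S599. The cause of these differences was not tested. No paired analysis was possible because the columns carry library numbers, not the replicate numbers of the labels. With 3 libraries per group, the intervals of 7 members included 0, and fits without S598 and S599 assume that the 1 knockout library varies like the controls.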

Other observations

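The ligands differed in the genes nearest to them in pattern, by the measure used for Tgfb3 and chosen for the other ligands after their values were seen. Tgfb2 was nearest to Ccdc117, Ahsa2 and Chordc1, with root mean square differences of 0.085, 0.12 and 0.13 on the log2 scale over 6 libraries, where Tgfb2 itself varied by 0.42. Ahsa2 and Chordc1 encode relatives or partners of the HSP90 chaperone machinery. Chordc1 stood at 72.5, 41.9 and 43.7 CPM in knockout libraries S595, S598 and S599, against 36.5, 61.9 and 43.5 CPM in control libraries S591, S592 and S594. The 2 libraries high in Tgfb2, knockout S595 and control S592, were high here too. That follows from choosing these genes by their likeness to Tgfb2 over the 6 libraries and is no separate result. Ahsa2 stood at 130, 69.2 and 57.2 CPM in those knockout libraries and at 56.8, 75.9 and 60.8 CPM in those control libraries.

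Tgfb1 was nearest to Tcn2, the transcobalamin gene, at 0.048. Tcn2 stood at 71.4, 56.4 and 74.2 CPM in knockout libraries S595, S598 and S599, against 85.2, 106 and 126 CPM in control libraries S591, S592 and S594, which is the same order of libraries as Tgfb1 (limma adjusted p = 0.123). Here too the likeness was the ground for the choice.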
